A study of Mus musculus with 2 samples.

Results

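The genes described here encode the classic axon guidance ligands and their receptors: the semaphorins, plexins and neuropilins, the ephrins and Eph receptors, the Slits and Robos, and netrin-1 with its receptor Dcc. They were chosen by symbol from the protein-coding genes that RefSeq lists on GRCm38.p6 (mm10). The rule found 61 genes, 32 ligands and 29 receptors, among 21887 protein-coding genes. H4K12la, lactylated lysine 12 of histone H4, had been mapped by CUT&Tag in Neuro2a, an established mouse neuroblastoma line, on collagen-coated plates. One library came from cells given NaCl (the control) and 1 from cells given 25 mM lactate. The question set for the series is whether the mark controls transcription. With 1 library per treatment there is no replicate error and no test between treatments, and every interval below is a 95% interval of counting error only.

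Guidance ligands steer growing axons by attracting or repelling the growth cone. Semaphorins bind plexins, and the secreted class 3 semaphorins do so mostly with a neuropilin as co-receptor. Ephrins and Eph receptors signal between touching cells in both directions, with ephrin-A held to the membrane by a lipid anchor and ephrin-B spanning it. Slits repel axons through Robo receptors, and netrin-1 attracts them through Dcc. Many of these genes are very long and are switched on in restricted sets of neurons.

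The control list held 46592 peaks and the lactate list 39768, each called separately by the authors. The lowest background recovered from each list was 2.96 control and 3.06 lactate reads, 3.43% higher with lactate. This is only a rough guide to depth, because the calling settings are not given. Summit reads are the reads stacked at a peak's highest point, solved from the authors' values, and fold and −log10 q are the authors' own, the fold being summit over local background and used to rank peaks within a list only. No called peak had a summit under 11 reads, and more were needed over a higher local background. In Plxna2, a control peak of 18 reads over a background of 6.68 had a −log10 q of only 1.61. A gene without a call may therefore hold signal below about 11 reads, or above it where the background is high. A label check on marker genes counted gene-end peaks at 3 of 14 sympathetic neuroblastoma or neuron genes with NaCl (21.4%) and at 6 with lactate (42.9%), beside 32.0% and 44.8% of all protein-coding genes, so below the share of all genes, and the check says nothing for or against the label. Among them were Isl1 in both libraries and Phox2a and Elavl4 in the lactate library alone. Of 15 markers of other cell types, the control had none and the lactate library had Mbp, with 15 summit reads (8.40 to 24.7). The mark is not a measure of expression.

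The promoters of 4 genes are printed to show where called peaks met a listed start. They were picked by fold and stand for few others, since a peak overlapped 12 of the 68 listed promoters of these genes in the control and 11 with lactate. Each line is 300 bases from RefSeq (GRCm38.p6), 5′ to 3′ on the strand of the gene, with the transcript start at base 251. Capitals mark matches, on either strand, of the GC box core GGGCGG, the CCAAT box, the TATA box TATAAA, the E-box CACGTG or the cyclic AMP response element TGACGTCA. The first pair had the highest fold among gene-end calls of the lactate library alone, and the second pair among calls in both libraries, in each case where a peak overlapped the listed promoter.
Sema4f, chr6:82939720-82940019, minus strand: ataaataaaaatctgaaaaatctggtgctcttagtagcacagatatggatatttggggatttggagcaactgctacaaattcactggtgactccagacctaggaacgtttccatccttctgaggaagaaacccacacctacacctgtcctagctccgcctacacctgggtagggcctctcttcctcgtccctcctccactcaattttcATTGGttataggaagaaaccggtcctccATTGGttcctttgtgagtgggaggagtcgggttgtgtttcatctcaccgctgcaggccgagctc
Plxnb2, chr15:89180739-89181038, minus strand: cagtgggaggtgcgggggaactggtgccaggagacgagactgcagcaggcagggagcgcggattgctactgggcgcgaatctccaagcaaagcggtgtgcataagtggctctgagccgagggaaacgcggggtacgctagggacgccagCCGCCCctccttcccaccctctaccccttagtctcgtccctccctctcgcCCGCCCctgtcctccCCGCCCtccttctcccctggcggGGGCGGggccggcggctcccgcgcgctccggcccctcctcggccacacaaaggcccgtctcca
Sema6d, chr2:124089719-124090018, plus strand: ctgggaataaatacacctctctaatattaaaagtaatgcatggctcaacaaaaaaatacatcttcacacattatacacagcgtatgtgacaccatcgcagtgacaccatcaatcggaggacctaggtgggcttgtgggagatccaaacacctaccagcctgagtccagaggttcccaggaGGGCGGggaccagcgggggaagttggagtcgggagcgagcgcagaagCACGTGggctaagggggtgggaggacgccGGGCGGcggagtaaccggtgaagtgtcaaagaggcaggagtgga
Sema4b, chr7:80186620-80186919, plus strand: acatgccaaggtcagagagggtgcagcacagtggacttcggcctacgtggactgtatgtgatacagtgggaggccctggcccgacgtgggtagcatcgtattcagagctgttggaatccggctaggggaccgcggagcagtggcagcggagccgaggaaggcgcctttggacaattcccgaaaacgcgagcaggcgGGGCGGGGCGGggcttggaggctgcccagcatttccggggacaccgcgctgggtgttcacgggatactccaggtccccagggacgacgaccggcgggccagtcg
The lactate peak at Sema4f reached bases 236 to 300 of its line and that at Sema4b bases 284 to 300. At Plxnb2 the lactate peak covered bases 3 to 271 and a control peak bases 42 to 183. At Sema6d the overlap came from a control peak at bases 285 to 300, and the highest peak of both libraries lay farther into the gene.

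The printed promoters differed in base content. Plxnb2 held 27 CpG dinucleotides at 70.3% GC and Sema4b 26 at 65.3%, against 14 at Sema6d and 7 at Sema4f, which was 48.7% GC. GGGCGG matched 4 times in Plxnb2, and 2 times each in Sema6d and Sema4b, where both Sema4b matches overlap. Sema4f held 2 matches of CCAAT and none of GGGCGG. Over all 68 listed promoters of 52 guidance genes, 72.1% held the GC box core, 29.4% the CCAAT box, 2.94% the TATA box, 7.35% the E-box and 1.47% the cyclic AMP element, counted on both strands. Over 21263 listed promoters of protein-coding genes the shares were 46.2%, 38.2%, 12.6%, 7.84% and 2.23%. The median promoter of the guidance genes held 18.5 CpG dinucleotides and was 64.0% GC, beside 13.0 and 56.3% over all promoters. A match is a run of letters and says nothing of binding.

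Although their promoters were rich in CpG, few guidance genes carried the mark there. Among genes with a promoter above the median CpG count, a peak overlapped such a promoter at 11 of 43 guidance genes in the control (25.6%, 13.5 to 41.2) and at 8 with lactate (18.6%, 8.39 to 33.4). Over all 9093 such protein-coding genes the shares were 41.3% and 65.2%. The lactate interval of the guidance genes lies below the share over all genes, while the control interval ends just below it. Among promoters at or below the median, 1 and 2 of 14 guidance genes had a peak, beside 8.81% and 13.5% of all such genes.

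**Figure D1:**
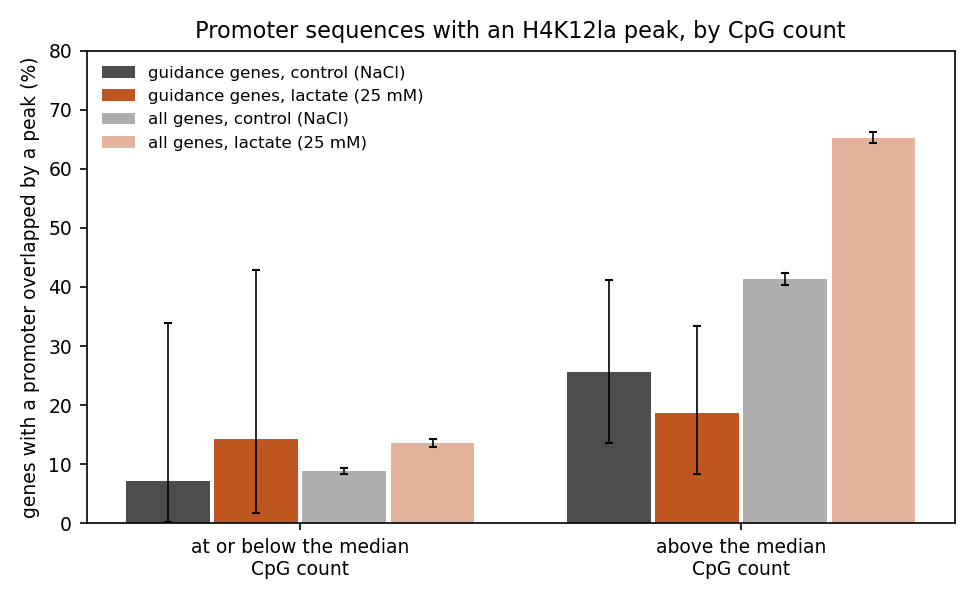
Percentage of genes with a listed promoter overlapped by a peak (y axis), for promoters at or below and above the median CpG count of 13.0 (x axis). Bars give each library for the guidance genes and for all protein-coding genes with 95% exact binomial intervals; above the median, the guidance genes stand at 25.6% and 18.6% and all genes at 41.3% and 65.2%.

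Gene-end peaks, those within 1 kb of either annotated end of the gene, gave the same picture with lactate and a less clear one in the control. The control had one at 13 of 61 guidance genes (21.3%, 11.9 to 33.7), beside 32.0% of all protein-coding genes, a share inside that interval. The lactate library had one at 12 (19.7%, 10.6 to 31.8), beside 44.8% of all genes. Both libraries called 7 guidance genes (11.5%), 5 had a lactate call only (8.20%) and 6 a control call only (9.84%). Over all genes these shares were 28.6%, 16.2% and 3.34%. Lactate-only and control-only calls were thus near equal in number among the guidance genes, although 11 such genes are few. At a −log10 q of at least 5, 2 control and 4 lactate calls were left among the guidance genes (3.28% and 6.56%), beside 8.54% and 24.1% of all genes. The median highest gene-end summit was 14.0 control reads and 18.5 lactate reads, beside 17.0 and 24.0 over all called genes.

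**Figure D2:**
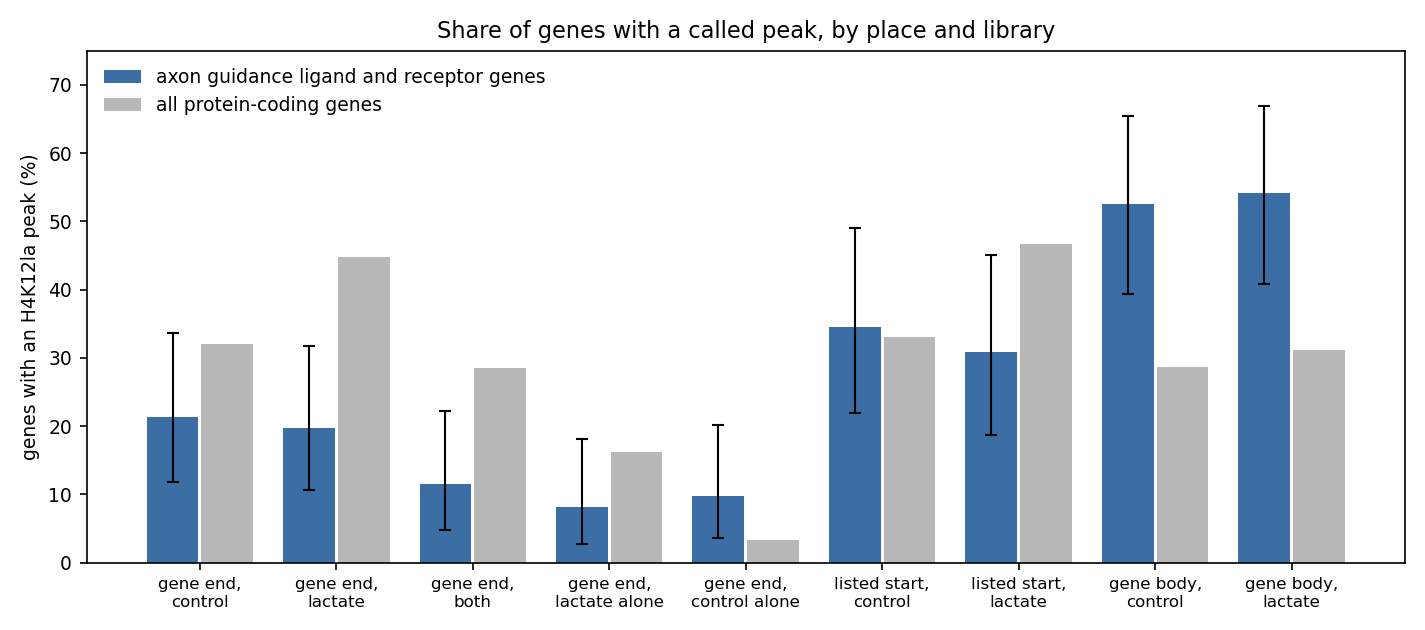
Percentage of genes with a called peak (y axis) by place and library (x axis), for the 61 guidance genes (52 for listed starts) with 95% exact binomial intervals and for all protein-coding genes. Gene-end shares of the guidance genes lie at 21.3% and 19.7%, below the 32.0% and 44.8% of all genes, and gene-body shares lie at 52.5% and 54.1%, above the 28.7% and 31.2% of all genes.

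The annotated end of a gene is not always where its listed transcripts start, since predicted transcripts can extend it. A transcript start is listed for 52 of the 61 genes. Within 1 kb of any listed start, 18 of these had a control peak (34.6%, 22.0 to 49.1) and 16 a lactate peak (30.8%, 18.7 to 45.1), beside 33.0% and 46.7% of 17492 protein-coding genes. Both libraries called 14 (26.9%), beside 30.4% of all genes. In the control the guidance genes were therefore close to the background by this count, and in the lactate library below it. This window was chosen after the data were seen. The 6 genes it added, Sema4a, Sema4c, Sema4d, Sema6b, Plxnb1 and Epha6, had a peak at a listed start in both libraries. At Sema6b and Plxnb1 the peaks of the 2 libraries did not overlap. The Sema6b control peak had 11 summit reads and a −log10 q of 1.61. The window at listed starts also gave Plxnb2 a control peak, with 18 summit reads, that its gene-end window misses.

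By family, the calls at starts were as follows. Of 12 class 4 to 7 semaphorins with a listed start, which encode membrane-bound ligands, 8 had a control start peak, 9 a lactate one and 7 both. Sema5b and Sema7a had none. These 12 genes have 22 listed starts and the other 40 genes 46, so they offered more windows per gene. Of 5 class 3 semaphorins with a listed start, Sema3g alone had a peak, in the control. The plexins had 3 of 7 in both libraries, Plxna3, Plxnb1 and Plxnb2. Among the Eph receptors, Epha6 and Ephb6 were called in both libraries and Epha5 in the control, which leaves 11 of 14 without a start peak. Efna5 and Efnb2 were the called ephrins, both in both libraries, of 7 with a listed start. Neither neuropilin and neither Slit with a listed start was called, and of the 3 Robos Robo2 was called, in the control. These counts were grouped after the data were seen and carry no test of a difference between families.

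At 7 guidance genes there were gene-end peaks in both libraries, all of them at the 5′ end. Sema6d, a transmembrane semaphorin, had the highest fold of all of them, with 21 summit reads (13.0 to 32.1) at a fold of 5.56 in the control, against 20 reads (12.2 to 30.9) at a fold of 5.07 with lactate. Those folds stood at percentiles 96.8 and 92.2 of the gene-end peaks of their lists. The 2 libraries were level at this gene. Ephb6, an Eph receptor that lacks kinase activity, was level too, with 19 reads (11.4 to 29.7) and 18 reads (10.7 to 28.4), although the peaks lay side by side without overlapping, upstream of its listed start.

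The other 5 had more summit reads in the lactate library. Efna5, a lipid-anchored ephrin, had 14 control reads (7.65 to 23.5) and 29 lactate reads (19.4 to 41.6). Sema4b, a transmembrane semaphorin, had 16 reads (9.15 to 26.0) and 29 reads (19.4 to 41.6). These were the widest gaps, and in both cases the intervals overlapped. The folds were close, 3.22 and 3.31 at Efna5 and 3.54 and 3.77 at Sema4b, and the local background also differed, at 3.66 control and 8.06 lactate reads at Efna5 and 3.80 and 6.96 at Sema4b. Sema6c had 14 and 20 reads, the transmembrane ephrin Efnb2 15 and 19, and the semaphorin receptor Plxna3 13 and 17. Median summits over the 7 were 15 and 20 reads, beside 17.0 and 26.0 over all genes called in both libraries. Whether this local background had a part in these counts was not tested.

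In the lactate library alone, 5 genes were called at an end. Plxnb2, a plexin for class 4 semaphorins, had 31 summit reads (21.1 to 44.0) on chromosome 15 at 89180768 to 89181036, over a local background of 10.1 reads. As its printed promoter shows, the control also had a peak at that start. Sema4f had 17 reads (9.90 to 27.2) at a background of 3.06 reads, with a −log10 q of 5.03. Sema4g also had 17 reads, 522 bases past its listed start, over a background of 5.52 reads and with a −log10 q of 2.06. The Ephb4 peak, with 14 reads, lay past the 3′ end of the gene. Sema3f, a secreted semaphorin, had 2 peaks of 14 reads each just inside its higher-coordinate end, and its strand is not in the promoter table. Of these 5, Sema4f alone reached a −log10 q of 5.

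In the control alone, 6 genes were called at an end. The highest was Plxna2, with 19 reads (11.4 to 29.7) past its 3′ end. Sema3g, a secreted semaphorin, had 16 reads (9.15 to 26.0) across its start, on chromosome 14 at 31217718 to 31218012. Sema5a and Epha5 had 13 reads each near their starts, and the one at Epha5 met the predicted gene Gm42163 as well. Robo2 had 13 reads at its 3′ end and Sema3a had 12 near a gene end that lies far upstream of its listed start. The highest −log10 q of the 6 was 4.33, and all were within 8 reads of the lowest callable summit.

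**Figure D3:**
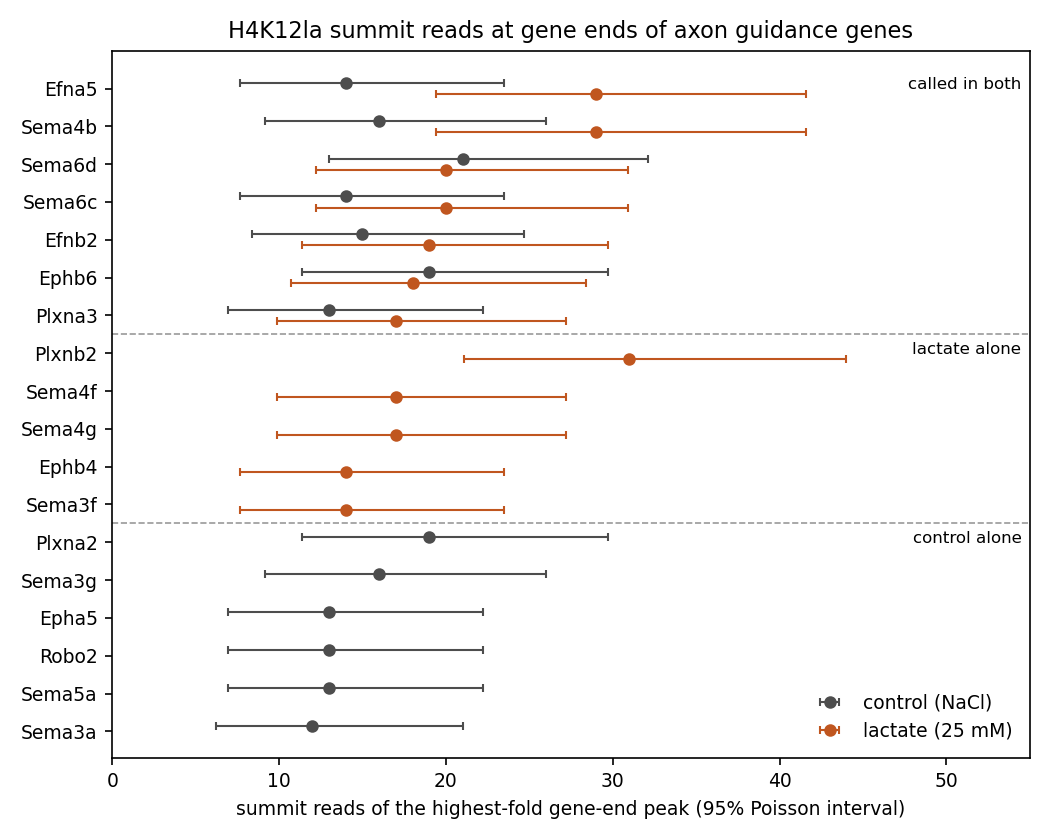
Summit reads of the highest-fold gene-end peak (x axis) at each of the 18 guidance genes with such a peak (y axis), with 95% exact Poisson intervals, in the control and lactate libraries. Where both libraries have a point, their intervals overlap; the highest value is 31 reads at Plxnb2.

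Away from their ends the guidance genes, many of them long, were called often. The median length was 44.0 kb, beside 17.2 kb over all genes. Gene-body peaks, inside the gene but outside the end windows, were found with NaCl in 32 guidance genes (52.5%), with lactate in 33 (54.1%) and with both in 28 (45.9%). Over all genes the shares were 28.7%, 31.2% and 22.1%. Above 50 kb the guidance genes were close to other genes of their length, and under 50 kb their shares were higher. From 50 to 200 kb, 61.5% and 69.2% of 13 guidance genes had a body peak, beside 62.5% and 66.4% of all genes of that length. Over 200 kb it was 87.5% and 81.2% of 16, beside 86.0% and 79.8%. Under 50 kb the shares were 31.2% and 34.4% of 32, above the 17.4% and 20.2% of all genes of that length. No interval was counted for these shares. Some body peaks of these short genes lay within 1 kb of a listed start inside the gene. Sema4a, Sema4c, Sema6b and Plxnb1 had such peaks in both libraries.

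The peaks themselves were spread unevenly over ligands and receptors. The 61 genes held 145 control and 119 lactate body peaks, or 1.21 and 0.995 per 100 kb, beside 1.57 and 1.59 over all genes. Under 50 kb the densities were 2.35 and 2.94, beside 1.66 and 1.94 in all genes of that length. From 50 to 200 kb they were 1.39 and 2.06, beside 1.72 and 1.96. Over 200 kb they were 1.09 and 0.632, beside 1.38 and 1.06. Over all protein-coding genes the lactate share of body peaks was 50.3% (49.8 to 50.9). The 32 ligands held 42 control and 67 lactate peaks, a lactate share of 61.5% (51.7 to 70.6). The 29 receptors held 103 and 52, a lactate share of 33.5% (26.2 to 41.6). Most of that gap came from 4 receptors on chromosome 16, and without them the other 25 receptors held 42 and 40 peaks, a share of 48.8% (37.6 to 60.1). Without Slit3 the other ligands held 39 and 53, a share of 57.6% (46.9 to 67.9). By gene, 14 had more control than lactate body peaks (23.0%) and 19 the reverse (31.1%), beside 12.3% and 17.1% of all genes.

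**Figure D4:**
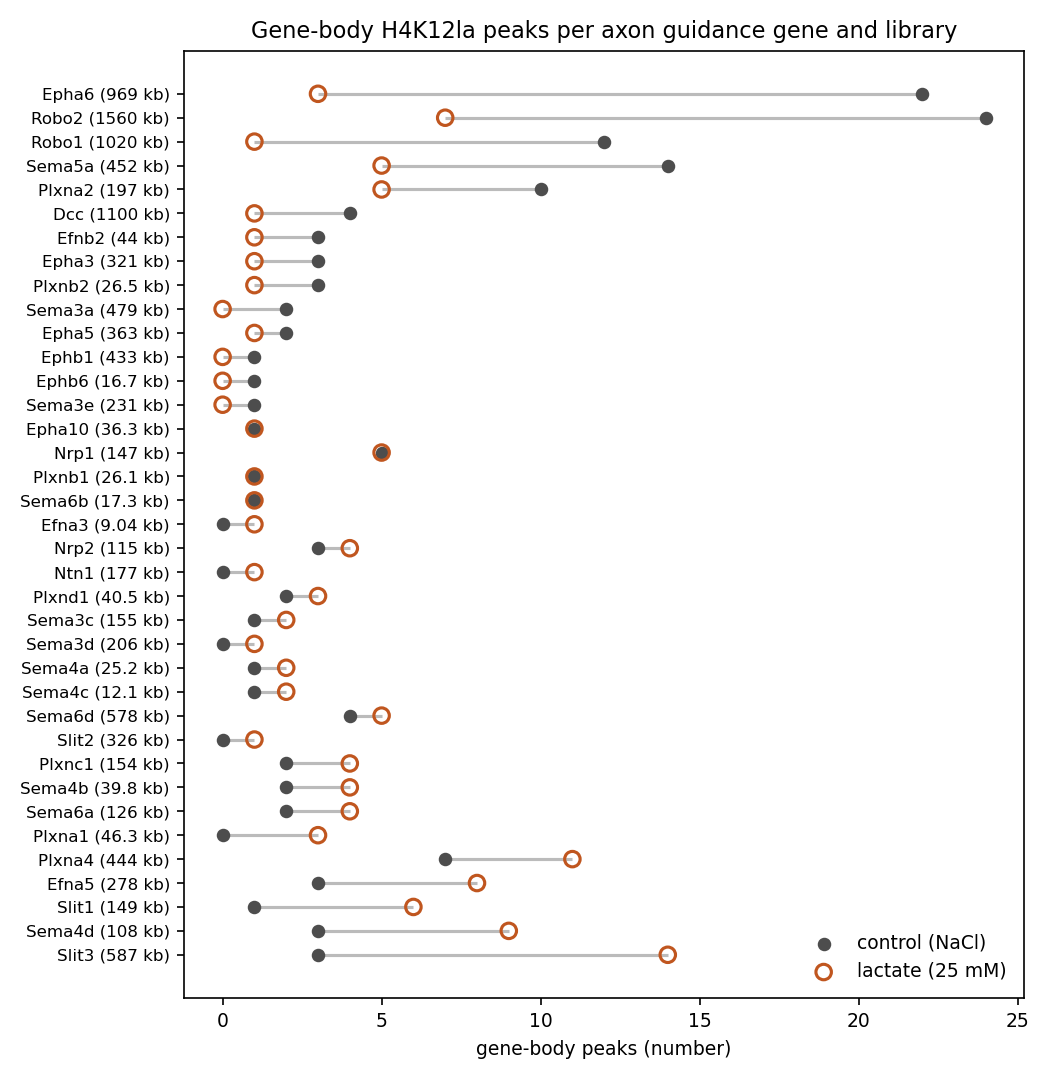
Number of gene-body peaks (x axis) in each of the 37 guidance genes with any (y axis, with gene length), filled points for the control and open points for the lactate library. Epha6, Robo2 and Robo1 stand apart on the control side with 22, 24 and 12 peaks, and Slit3 on the lactate side with 14.

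Robo2, Epha6 and Robo1 had the widest surplus of control peaks. Robo2, a Slit receptor 1560 kb long, held 24 control and 7 lactate body peaks. Epha6, an ephrin-A receptor, held 22 and 3, and Robo1 held 12 and 1. Epha3, which lies between Epha6 and Robo1, held 3 and 1. Together the 4 genes held 61 and 12 body peaks, a lactate share of 16.4% (8.79 to 27.0). Of the control peaks in Robo1 none overlapped a lactate peak. In Robo2, 4 of 24 did, and in Epha6 3 of 22.

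These 4 genes lie within 15.8 Mb of chromosome 16, from 59641433 to 75447443, and the surplus was not confined to them. In that stretch outside the 4 genes the control had 1.60 peaks per 100 kb and the lactate library 0.486. On the rest of chromosome 16 the values were 1.56 and 1.49, and over all chromosomes 1.71 and 1.46. The control density in the 4 genes was 1.60, the same as around them, and the lactate density was 0.310. The median local background at peaks was 2.96 control and 3.06 lactate reads inside the 4 genes, beside 3.16 and 4.24 on the rest of the chromosome. The values inside the 4 genes are the lowest background of any peak in each list, so they do not resolve differences below that level. The part of this local background in the result was not tested. Without the 4 genes the remaining 57 held 84 and 107 body peaks, a lactate share of 56.0% (48.7 to 63.2).

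Long genes in general had a lower lactate share of body peaks than genes of all lengths. The control list as a whole was also the longer, with 46592 peaks against 39768. Over all 990 protein-coding genes longer than 200 kb the share was 43.4% (42.5 to 44.4), beside 50.3% over all lengths. In the 16 guidance genes longer than 200 kb it was 36.6% (29.2 to 44.6). Without the 4 on chromosome 16 it was 53.4% in 12 genes (42.5 to 64.1). The 500 kb on each side of a long guidance gene were counted as its flanks. Of the 16 such genes, 11 had fewer control peaks per 100 kb inside than in the flanks, and 5 had more, Efna5, Plxna4, Sema6d, Epha6 and Robo2. With lactate 9 had fewer and 7 more. On chromosome 5, Sema3a, Sema3d, Sema3e and Epha5 had 22, 21, 25 and 21 control peaks in their flanks and 3, 0, 1 and 3 inside. Per 100 kb that is 2.10 to 2.50 in the flanks and 0 to 0.826 inside. Sema3d, Sema3a and Sema3e are neighbours whose flanks overlap, so some peaks count for more than 1 of them. Slit2, also on chromosome 5, had 9 control peaks in its flanks and 0 inside. In the lactate library the flanks of these 5 genes held 3 to 5 peaks each. Dcc, the netrin receptor, 1100 kb long, held 4 control peaks and 1 lactate peak, or 0.364 and 0.0911 per 100 kb.

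Sema5a, a transmembrane semaphorin, and Plxna2, a receptor for class 3 and class 6 semaphorins, also had more control peaks. Sema5a held 14 control and 5 lactate body peaks, and 3 of each overlapped. Its flanks held 41 control and 14 lactate peaks, or 4.10 and 1.40 per 100 kb, beside 3.32 and 1.11 inside, so the surplus extended past the gene. Plxna2 held 10 and 5. At Plxna2 the control peaks had high summits, up to 28 reads (18.6 to 40.5), over a high local background of 8.24 reads, and no body peak there reached a −log10 q of 5 in either library.

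Slit3, Sema4d, Slit1, Efna5 and Plxna4 had the widest surplus of lactate peaks. Slit3, a secreted Robo ligand 587 kb long, held 14 lactate peaks and 3 control peaks, and each control peak overlapped a lactate peak. All of them lay in the part of the gene away from its start, with summits from 359 to 584 kb past the 5′ end. The highest had 26 summit reads (17.0 to 38.1), at 35612005 to 35612832 and at 35663973 to 35664172 on chromosome 11. Per 100 kb, Slit3 held 2.38 lactate peaks inside and 2.60 in its flanks, beside 0.511 and 1.80 control peaks. The lactate density was higher inside than in the flanks at Efna5, 2.87 against 0.800, and at Plxna4, 2.48 against 1.70. Slit1 held 6 lactate peaks and 1 control peak, which overlapped 1 of the 6, while Slit2 held 1 lactate peak of 12 reads and none in the control.

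Sema4d, a transmembrane semaphorin and ligand of Plxnb1, held 9 lactate and 3 control body peaks. Of these, 2 lactate peaks and 1 control peak stood at a listed start inside the gene, with up to 25 lactate reads (16.2 to 36.9) and 15 control reads (8.40 to 24.7). Plxna4, a partner of neuropilins, held 11 and 7. Plxna1 held 3 lactate peaks close together near its higher-coordinate end and none in the control, and 2 of the 3 lay at an end of the predicted gene Gm40415. The neuropilins were almost level, with 5 and 5 peaks at Nrp1 and 3 control and 4 lactate peaks at Nrp2. Netrin-1, Ntn1, held 1 lactate peak of 15 reads.

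**Figure D5:**
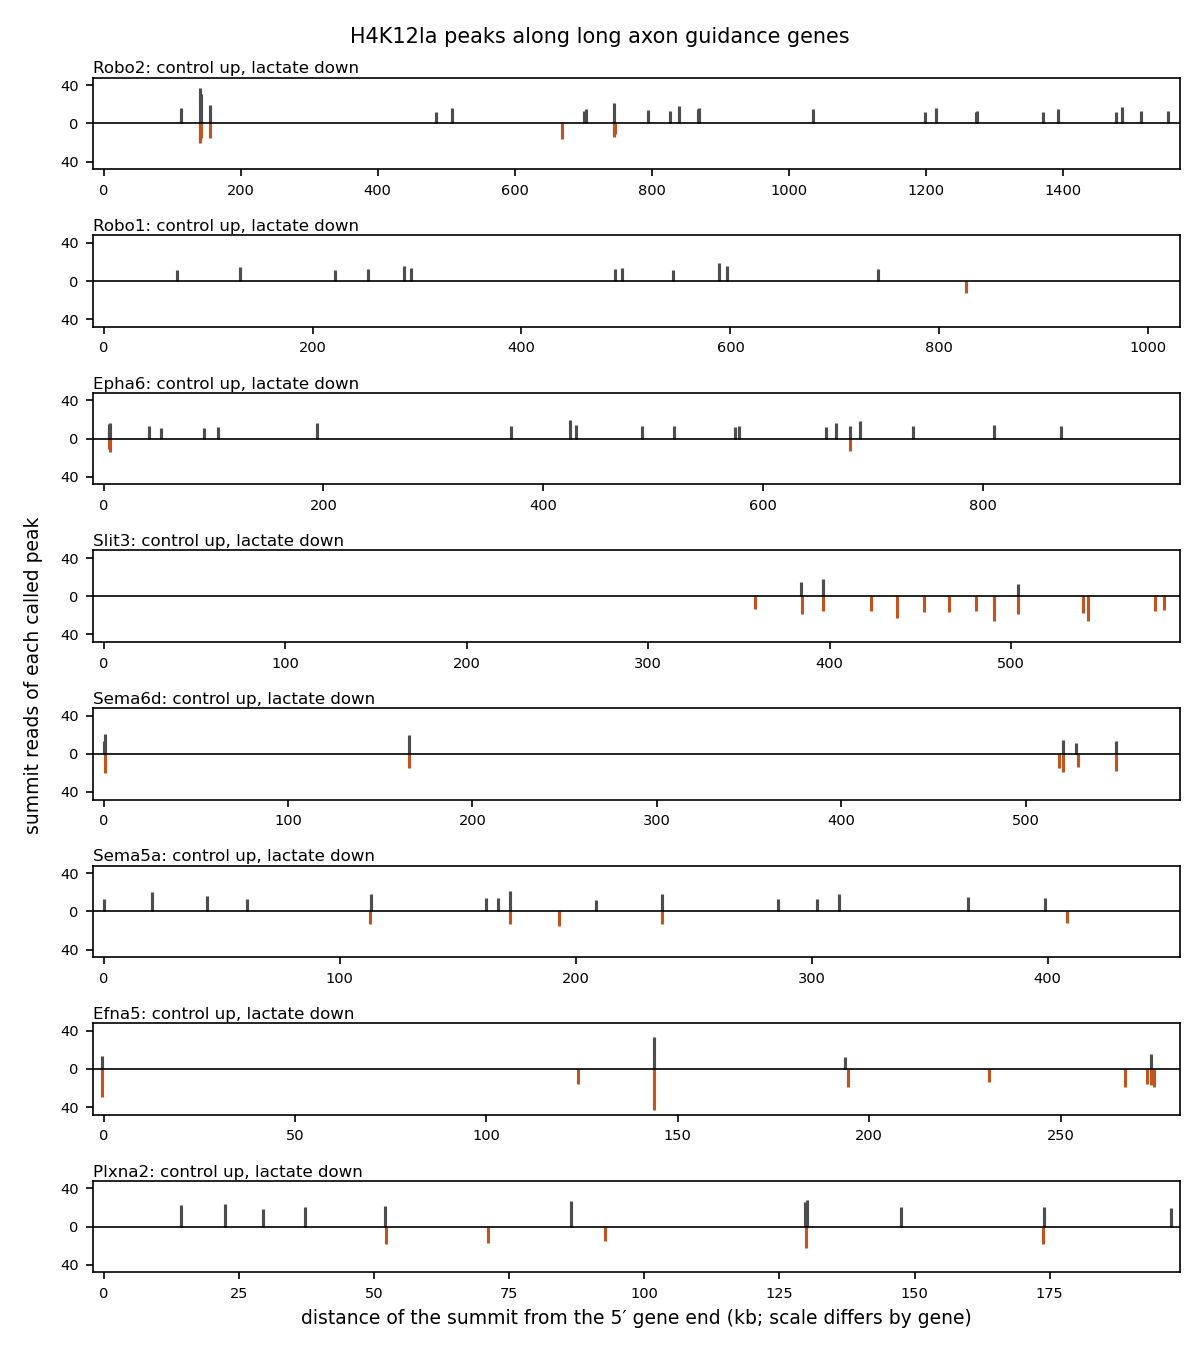
Summit reads of every called peak (y axis, control upward and lactate downward) against distance from the 5′ gene end in kb (x axis, scale differs by gene) for 8 guidance genes. Control peaks are scattered along Robo2, Robo1 and Epha6, while the peaks of Slit3 lie beyond 359 kb. Within Efna5 the peak at 144 kb is the highest in both libraries.

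The highest-fold body peak of the guidance genes was the same in both libraries. It lay inside Efna5, 144 kb past its start, on chromosome 17 at 62737422 to 62737777 in the control and 62737398 to 62737780 in the lactate library. It had 33 summit reads (22.7 to 46.3) and a fold of 8.59 in the control, against 43 reads (31.1 to 57.9) and a fold of 9.05 in the lactate library. The folds stood at percentiles 99.5 and 99.6 of body peaks. The intervals overlapped.

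Next by fold in the control came peaks in Sema3c, with 22 reads and a fold of 5.48, Sema6d with 20 and 5.31, Robo1 with 19 and 5.05, and Epha6 with 20 and 4.91. The first 2 of these had lactate partners, with 18 and 15 reads, and those of Robo1 and Epha6 had none. In the lactate library the next were in Plxnc1, a plexin for Sema7a, with 22 reads and a fold of 5.66 and no control partner, and in Sema3c with 18 reads and a fold of 4.68. Nrp2 and Sema6b followed, each with a fold of 4.55 and with 22 and 20 reads. The Nrp2 peak, 3.21 kb past the start, had a control partner of 14 reads. The peak of highest summit among control body peaks was another, in Robo2, with 37 reads (26.1 to 51.0) on chromosome 16 at 75306849 to 75307346, and its lactate partner had 19 (11.4 to 29.7).

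Body peaks were mostly called in 1 library. Of the control body peaks 30.3% overlapped a lactate peak (23.0 to 38.5), beside 38.8% over all genes. Without the 4 genes on chromosome 16 the share was 36 of 84 (42.9%), above that of all genes, although no interval was counted for it. Of the lactate body peaks 37.8% overlapped a control peak (29.1 to 47.2), as over all genes. Without those 4 genes 35 of 107 did (32.7%), below the share of all genes and again without an interval. Median summits were 15 and 17.0 reads, the same as over all body peaks. Of 131 control body peaks in genes with a listed start, 16 lay within 10 kb of one (12.2%), and of 93 lactate peaks 19 did (20.4%). These counts include the 4 genes on chromosome 16, and the same share over all genes was not counted. A −log10 q of at least 5 was reached by 13 control peaks (8.97%) and 14 lactate peaks (11.8%), beside 11.4% and 16.5% of all body peaks.

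No peak of either library fell at an end of, or inside, 17 guidance genes (27.9%), beside 37.6% of all genes. They were the ephrins Efna1, Efna2, Efna4, Efnb1 and Efnb3, the Eph receptors Epha1, Epha2, Epha4, Epha7, Epha8, Ephb2 and Ephb3, the semaphorins Sema3b, Sema5b and Sema7a, the plexin Plxnb3, and Robo3, a divergent Robo of commissural axons. Efna3 held 1 lactate peak of 15 reads inside the gene. Epha4, Epha7 and Ephb2 are among them although they are 148, 154 and 189 kb long.

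Other genes act beside or downstream of these ligands and receptors. A list of 66 such genes held other netrins and Unc5 receptors, adhesion molecules, and cytoplasmic kinases, adaptors and cytoskeletal regulators. The control called 23 of them at an end (34.8%) and the lactate library 38 (57.6%), beside 32.0% and 44.8% of all genes and 21.3% and 19.7% of the ligands and receptors above. The control share of this list was thus near that of all genes. Both called 22, and of the rest 16 had only a lactate call and 1, Ntng1, only a control call. Over all genes 28.6% were called in both, 16.2% with lactate only and 3.34% in the control only, so lactate-only calls outnumber control-only calls there too. Among those called in both, the focal adhesion kinase Ptk2 had 35 and 48 summit reads, the Src-family kinase Fyn 15 and 22, the kinase Pak1 15 and 27, and the adaptor Nck1 19 and 21. Among the lactate-only genes the highest folds were at Adam10, a protease that cuts ephrins, with 24 reads, the exchange factor Farp1 with 22, and the collapsin response mediators Dpysl2 and Dpysl3 with 19 and 24. No test of the difference between the lists was made.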

How the data were processed

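The 2 libraries of H4K12la CUT&Tag, which cuts and tags the DNA beside an antibody-bound mark, were grouped by the treatment in the labels. The submitters' processing notes name BWA, deepTools, MACS2 and mm10. Versions, calling settings, any control library and any spike-in were not given in the sources used here. Each deposited peak list holds, per peak, the authors' fold at the summit, a ratio of summit to local background after adding 1 read to each. It also holds the authors' −log10 p, their −log10 q, and a score that the authors derived from it (−log10 q times 10, to within 1). The lists carry no common scale of total mark.

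The 6 mitochondrial peaks of each list were left out. Summit reads and local background were solved from fold and −log10 p, to within 0.001 for 46591 control and 39768 lactate peaks. Genes, strands, transcript starts and promoters came from RefSeq tables of GRCm38.p6. All 66 other guidance genes and 29 markers matched. A call needed an overlap of 1 bp. Proportions have exact Clopper-Pearson and summits exact Poisson 95% intervals. The genes and lists were chosen with earlier results of these data known. Every guidance gene with a gene-end peak was named, as were the 5 highest-fold body peaks and the 5 genes with the most body peaks per library, and up to 4 other guidance genes per kind of call. Python 3.11.15, numpy 2.4.6, pandas 2.3.3 and scipy 1.17.1 were used, and the code was tested on simulated data.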

Additional observations from a re-analysis of the deposited data

How the results depend on the processing

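Counts of guidance genes with a gene-end peak were 13 (control), 12 (lactate), 7 (both), 5 (lactate only) and 6 (control only). The body counts were 32 and 33 genes, and 145 and 119 peaks, of which 44 and 45 had a partner. The peak threshold moved them most. With a −log10 q threshold of 5 the gene-end counts became 2, 4, 1, 3 and 1 in that order. At that threshold 9 genes had body peaks in each library, with 13 and 14 peaks and 3 partnered in each. With a threshold of 10 no gene-end call remained (0 in each of the 5 counts), 2 control and 1 lactate body peaks were left, in 2 genes and 1 gene, and 1 of each had a partner. A 3 kb window gave 20 control, 24 lactate, 14 shared and 10 lactate-only genes. The lactate-alone count was 3 with a 500 bp window, with the 5′ gene end only, and with the summit required inside the window. The 5′ count leaves out the 9 genes whose strand is not in the promoter table. Listed transcript starts, added after the data were seen, gave 14 shared and 2 lactate-only genes. Without the 4 chromosome 16 genes, also added later, control body peaks numbered 84. The other 58 values, lists of equal length and merged peaks included, stayed within 1.5 times. No paired analysis was possible because each treatment has 1 library. Summits of 11 to 20 reads leave most single differences within counting error.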
